A study of Mus musculus with 6 samples.

Results

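The PGC-1 coactivators, the PPAR nuclear receptors and the regulators of mitochondrial biogenesis were followed in liver RNA arrays of 6 mice. The 10 genes were matched by gene symbol in the platform annotation: Ppargc1a and Ppargc1b, Ppara, Pparg and Ppard, Rxra, Esrra, Nrf1, Gabpa and Tfam. They and the lists of related genes below were chosen with earlier results of these data known, so counts of called genes are descriptive. All 10 were measured, among 12393 genes tested in all. Each gene is represented by its lead probe set, the one with the highest mean over the 6 arrays, and its other probe sets are given where they exist.

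All 6 mice were labelled Ppara KO on a C57 background and were 1 month old, so the controls carried the same knockout as the treated mice. An adenovirus carrying TFEB was injected into the liver of 3 mice, and the other 3 received no injection. TFEB is a basic helix-loop-helix factor that switches on genes of lysosomes and autophagy. No mouse was labelled as having received a vector without TFEB, so TFEB, the virus and the injection cannot be told apart. The sources used here do not give the promoter in the vector, the time after injection or the form of the Ppara allele. Each array is 1 mouse, and values are RMA log2 expression levels, on which a difference of 1 is a doubling.

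The PGC-1 coactivators, encoded by Ppargc1a and Ppargc1b, do not bind DNA themselves. They dock on nuclear receptors such as the PPARs, which bind DNA as heterodimers with RXR, and on the orphan receptor ERR-alpha, encoded by Esrra, and recruit the transcription machinery. NRF1 and GABP, whose DNA-binding subunit is encoded by Gabpa, switch on nuclear genes of the respiratory chain and Tfam, the factor that packages and transcribes mitochondrial DNA. In liver PGC-1-alpha is known as a fasting-induced coactivator of fatty acid oxidation and gluconeogenesis genes.

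The Tfeb probe set read 7.52, 7.63 and 7.51 in the not-injected and 7.63, 7.46 and 7.69 in the TFEB-injected livers (log2 change 0.04 ± 0.07 SE; limma adjusted p = 0.777). The labels name neither the species of the injected TFEB nor the deleted part of Ppara, so neither probe set checks the labels. The 9 hepatocyte markers measured read between 13.49 and 15.03 on every array, and 0 of them passed the test. The upper end of this range lies near the highest value of the arrays, 15.20, and whether the hepatocyte share of RNA changed was not tested. Over all genes 1238 rose and 981 fell (1060 and 1352 with each array centred on its median), with a median log2 change of -0.01. With TFEB-injected replicate 2 left out 719 rose and 502 fell; the removal of a control array gave 747 to 858 and 525 to 589. Here "rose", "fell" and "called" mean a limma adjusted p under 0.05, with Benjamini-Hochberg adjustment over all genes. In whole liver RNA, more cells of a type and more RNA per cell cannot be told apart.

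Of the 10 genes, 3 rose and 0 fell: Ppargc1a, Pparg and Esrra. The background rate was 9.99% of all genes called higher, 7.92% called lower and 17.9% called in either direction. The values of the groups did not overlap for 8 of the 10 genes, against 37.1% of all genes. Because the genes were chosen with earlier results known, these shares are not an unbiased comparison with the background. The median log2 change of the 10 was 0.10. With 3 mice in each group an exact permutation test of a single gene cannot go below 0.1, so calls rest on the fit across all genes.

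The promoters of Ppargc1a and Esrra, whose calls were kept under every setting tried, show where binding motifs were sought. RefSeq gave promoters for 9 of the 10 genes, 300 bases each, from 250 before to 50 after the annotated start. The Ppargc1a window is chr5:51567676-51567975 on the minus strand and the Esrra window is chr19:6921759-6922058 on the minus strand, both in GRCm38.p6. Capitals mark motif matches.
Ppargc1a: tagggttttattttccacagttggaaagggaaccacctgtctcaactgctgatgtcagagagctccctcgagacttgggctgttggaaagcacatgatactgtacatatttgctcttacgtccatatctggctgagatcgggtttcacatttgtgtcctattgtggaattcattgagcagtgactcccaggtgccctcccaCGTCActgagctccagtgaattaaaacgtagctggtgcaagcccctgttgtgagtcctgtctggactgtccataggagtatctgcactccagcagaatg
Esrra: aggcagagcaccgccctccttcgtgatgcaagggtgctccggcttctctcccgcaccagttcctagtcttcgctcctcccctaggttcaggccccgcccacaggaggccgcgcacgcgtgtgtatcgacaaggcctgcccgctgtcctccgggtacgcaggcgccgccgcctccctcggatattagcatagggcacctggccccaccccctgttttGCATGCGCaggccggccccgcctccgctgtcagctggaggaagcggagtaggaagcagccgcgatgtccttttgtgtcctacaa

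In the Ppargc1a window the short cyclic AMP motif CGTCA was found, beginning at position -49 from the start site. It also occurred in the windows of Ppara (-222) and Ppard (-4), which were not called. This motif is common, being present in 20.8% of all 32851 promoters of the same length, and the full element TGACGTCA (1.79% of promoters) was not matched there. In the Esrra window the match, at position -34, was to the NRF1 core GCGCATGC, read on the opposite strand and present in 2.71% of promoters. The same core occurred at overlapping positions -31 and -29 in the Ppara window. The GABP core CCGGAAG, present in 8.86% of promoters, occurred in the Gabpa window at -93 and in the Tfam window at -47. The E-box CACGTG (7.15% of promoters) and the longer TCACGTGA (0.974%), which contains it and is the core of the CLEAR element that TFEB is known to bind, were matched in none of the windows of the 9 genes. The ERR motif AAGGTCA (4.72% of promoters) occurred in the second Rxra window, at -49. All motifs were sought on both strands, and a match describes letters in these windows only. For Ppargc1a only 1 window was given. Any other start site of the gene was not searched, so the absence of a motif covers that window only.

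Ppargc1a, for PGC-1-alpha, rose most among the 10. Its lead probe set read 7.43, 7.44 and 7.46 in the not-injected livers and 8.93, 9.73 and 10.42 in the TFEB-injected livers. The groups were far apart, and the injected mice differed among themselves far more than the controls did. The log2 change was 2.25 ± 0.32 (SE, n = 3 per group; 95% interval 1.50 to 3.00; limma adjusted p = 0.00330), a 4.77-fold rise. It was the 19th largest rise among all genes. Against the control mean the separate injected mice stood 2.80-fold, 4.90-fold and 7.88-fold higher, a 2.81-fold spread between the lowest and the highest. The SD was 0.75 in the injected and 0.01 in the control group, and 99.87% of all genes had a smaller SD in the injected group. The fit pools the spread of both groups; the call was kept without each array in turn, with an adjusted p of at most 0.0197.

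**Figure D1:**
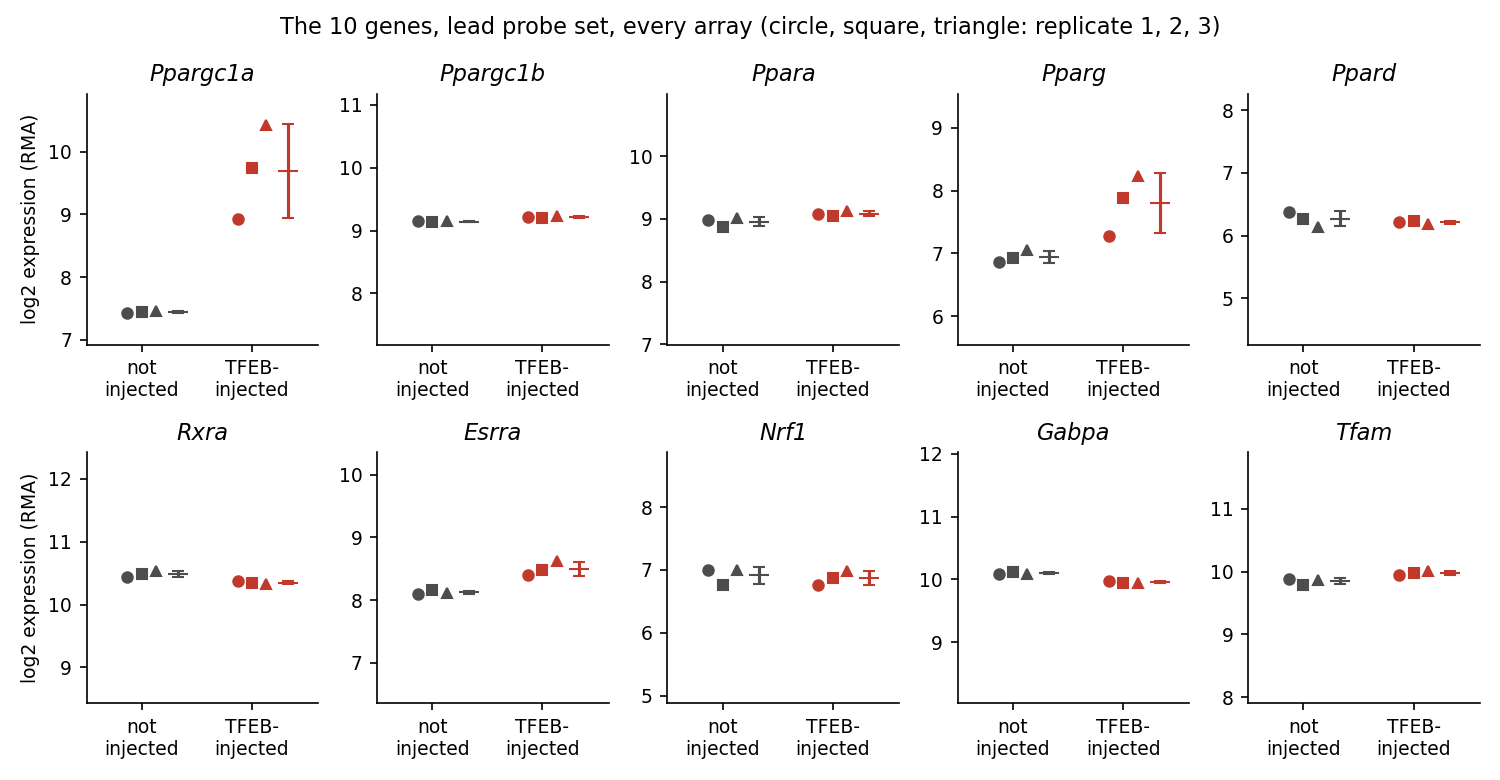
Log2 expression level (RMA, y axis) of the lead probe set of each of the 10 genes on the 6 arrays, by group on the x axis; points are mice, and bars beside them give the mean ± SD (n = 3). Every panel spans the same height, so Ppargc1a (7.43 to 10.42) and Pparg (6.86 to 8.23) stand out, while the other panels are nearly flat.

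All 5 Ppargc1a probe sets rose when every probe set was tested. Probe set 1437751_at read 5.98, 6.23 and 6.19 in control and 7.40, 8.50 and 9.16 in injected livers (log2 change 2.22 ± 0.38; limma adjusted p over all probe sets = 0.00741). Probe set 1456395_at changed by 2.15 ± 0.34 and 1434099_at by 1.95 ± 0.26. The smallest change, 1.80 ± 0.25, came from 1434100_x_at, whose suffix marks possible cross-hybridisation. On every probe set all injected arrays lay above all control arrays, and TFEB-injected replicate 1 was the lowest and replicate 3 the highest of the injected arrays.

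**Figure D2:**
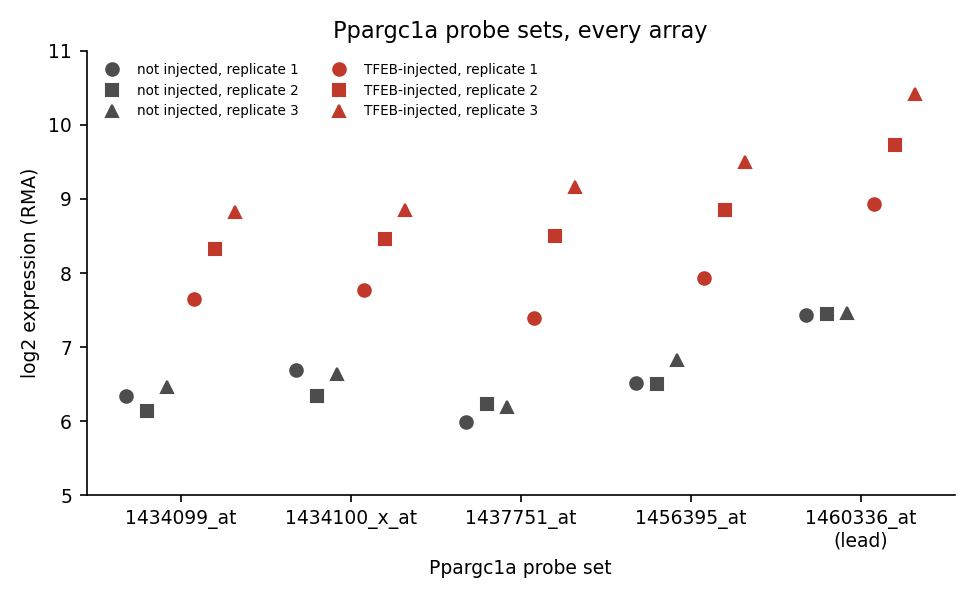
Log2 expression level (RMA, y axis) of each Ppargc1a probe set (x axis) on every array; grey marks are not-injected and red marks TFEB-injected livers, with 1 shape per replicate number. Grey and red do not overlap on any of the 5 probe sets, and the injected mice keep the same order on each.

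Ppargc1b, for the related coactivator PGC-1-beta, read 9.14, 9.14 and 9.14 in control and 9.22, 9.20 and 9.23 in injected livers. The groups did not overlap, but the difference was small and not called, at 0.07 ± 0.04 (95% interval -0.02 to 0.17; limma adjusted p = 0.286). The within-array difference Ppargc1a minus Ppargc1b lay between -1.72 and -1.69 in control arrays and was -0.29, 0.54 and 1.19 in injected arrays. That difference of 2.18 had an exact two-sided permutation p of 0.1, the smallest that 3 against 3 allows. Pprc1, for the PGC-1-related coactivator, gave 7.91 ± 0.05 and 7.78 ± 0.27 (SD, n = 3) in control and injected livers and was not called.

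Among the PPARs the called gene was Pparg, which encodes the PPAR best known from adipocytes, where it drives fat storage. Its probe set read 6.86, 6.92 and 7.05 in control and 7.28, 7.88 and 8.23 in injected livers. The groups did not overlap, with TFEB-injected replicate 1 close to the controls. The rise was 0.86 ± 0.21 (95% interval 0.36 to 1.35; limma adjusted p = 0.0316), or 1.81-fold, and 1.26-fold, 1.92-fold and 2.45-fold in the separate injected mice. Removal of control replicate 1, 2 or 3 ended the call (limma adjusted p = 0.103, 0.0991 and 0.0702), as did removal of TFEB-injected replicate 2 (adjusted p = 0.106). A trend of the prior with intensity ended it too (adjusted p = 0.0613).

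Pparg is also transcribed in fat and in macrophages. Adipocyte markers read between 3.81 and 6.52 on every array; 0 of 6 were called, and Adipoq, at 3.94 and 3.87 in control and injected livers, lay near the lowest value of the arrays, 3.08. Of 9 macrophage and Kupffer cell markers 5 rose and 0 fell, with a median log2 change of 0.49 and a summed log2 level of 12.85 to 12.89 in control and 13.23 to 13.51 in injected livers. By mouse the median of these markers stood 0.64 above the controls in injected replicate 1, 0.52 in replicate 2 and 0.33 in replicate 3, the opposite order to Pparg and Ppargc1a. Taken singly, 6 of the 9 markers had this opposite order and 1 had the order of Ppargc1a. Among the 5 called markers these counts were 2 and 1. Without TFEB-injected replicate 3 the count of markers that rose was 8. Of 6 endothelial markers 2 rose and 0 fell, with a median log2 change of -0.02. Stab2 rose by 1.42 ± 0.05 and Lyve1 by 0.89 ± 0.07, both markers of sinusoidal cells. Pecam1 (-0.01 ± 0.10), Cdh5 (-0.03 ± 0.06), Kdr (-0.09 ± 0.06) and Tek (-0.07 ± 0.12) were not called. The summed log2 level of the 6 was 10.58 to 10.65 in control and 11.18 to 11.31 in injected livers. Of 6 stellate cell markers Col3a1 rose (0.32 ± 0.05) while Lrat (-0.48 ± 0.10) and Reln (-0.19 ± 0.04) fell; both falls were uncalled on removal of control replicate 2 or 3 or injected replicate 2, and that of Reln also on removal of control replicate 1. Of 4 cholangiocyte markers Sox9 fell (-0.33 ± 0.05), and on removal of injected replicate 1 the count was 2. The part of RNA from these cell types in the Pparg change, or in that of any other gene named here, was not tested.

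Ppara, for the receptor that switches on fatty acid oxidation in fasting liver and that the labels give as knocked out, still gave signal, at 8.98, 8.87 and 9.01 in control and 9.08, 9.04 and 9.12 in injected livers. The groups stood next to each other without overlap (0.13 ± 0.05; 95% interval 0.00 to 0.26; limma adjusted p = 0.149), and the gene was not called. Ppard, for the widely expressed PPAR-delta, gave overlapping values of 6.38, 6.27 and 6.14 against 6.22, 6.23 and 6.18 (-0.05 ± 0.07; 95% interval -0.21 to 0.10; limma adjusted p = 0.634). The within-array log2 difference Pparg minus Ppara was 0.73 higher in the injected group and Pparg minus Ppard 0.91 higher, each with an exact two-sided permutation p of 0.1.

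Rxra, for the main heterodimer partner of the PPARs in liver, read 10.43, 10.48 and 10.53 in control and 10.37, 10.35 and 10.33 in injected livers. All injected values were slightly lower, but the change of -0.14 ± 0.05 was not called (95% interval -0.25 to -0.03; limma adjusted p = 0.0935). Its second probe set gave -0.12 ± 0.07, with overlapping groups. Of 12 further receptors measured as partners and relatives, 1 rose and 2 fell, with a median of -0.10. The thyroid hormone receptor gene Thra rose by 0.25 ± 0.06, while Thrb (-0.25 ± 0.06) and the xenobiotic receptor gene Nr1i3 (-0.27 ± 0.06) fell. Removal of control replicate 1 or 2 ended each of these calls. So did removal of control replicate 3 for Thra and Nr1i3, of injected replicate 1 or 3 for Thra, and of injected replicate 2 for Thrb and Nr1i3 (highest limma adjusted p 0.115 for Thra, 0.0922 for Thrb and 0.0700 for Nr1i3).

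Esrra, for ERR-alpha, the orphan receptor through which PGC-1-alpha is known to act on respiratory genes, rose. It read 8.10, 8.15 and 8.11 in control and 8.40, 8.48 and 8.62 in injected livers. All injected mice stood above all controls by a small margin, 1.21-fold, 1.28-fold and 1.41-fold over the control mean. The log2 change was 0.38 ± 0.06 (95% interval 0.23 to 0.53; limma adjusted p = 0.00651), and the call was kept without each array in turn (adjusted p at most 0.0337). The relatives Esrrb (0.08 ± 0.07) and Esrrg (-0.09 ± 0.06) were not called.

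**Figure D3:**
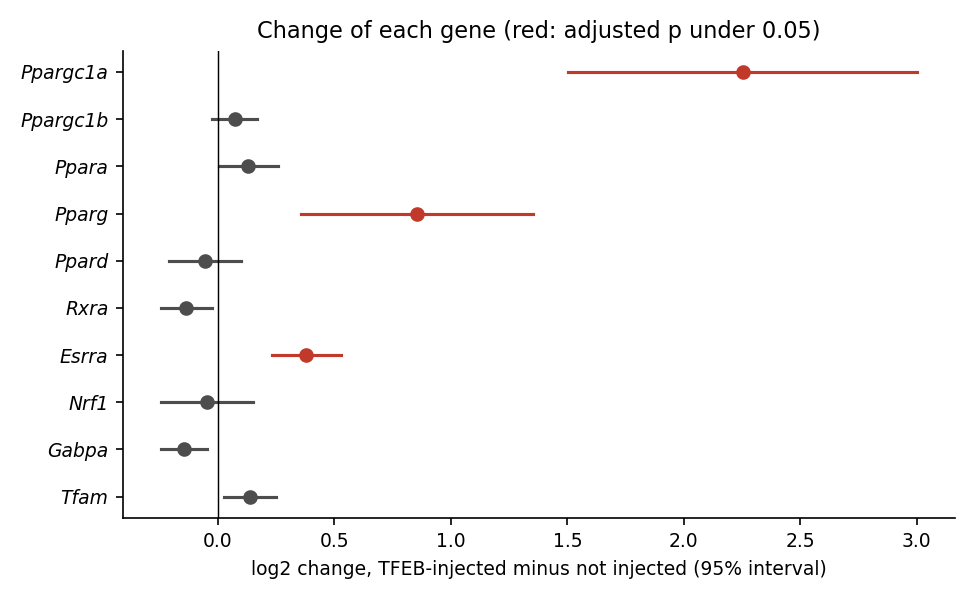
Log2 change (x axis, TFEB-injected minus not injected) of each of the 10 genes with its 95% interval from the limma fit; red marks an adjusted p under 0.05. Ppargc1a (2.25), Pparg (0.86) and Esrra (0.38) are red, and every other estimate lies between -0.14 and 0.14.

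Nrf1 and Gabpa, the DNA-binding partners of PGC-1 outside the nuclear receptors, were not called. Nrf1 gave overlapping values of 7.00, 6.76 and 7.00 in control and 6.77, 6.87 and 6.98 in injected livers (-0.05 ± 0.08; 95% interval -0.24 to 0.15; limma adjusted p = 0.760). Its other probe sets gave 0.00 ± 0.10 and, with groups that did not overlap, -0.17 ± 0.06 (limma adjusted p over all probe sets = 0.0996). Gabpa read 10.08, 10.12 and 10.09 in control and 9.97, 9.94 and 9.95 in injected livers. That difference of -0.14 ± 0.04 separated the groups but missed the threshold (95% interval -0.24 to -0.05; limma adjusted p = 0.0530). It passed with arrays centred on their median (adjusted p = 0.0265) and in 4 other settings, while the second Gabpa probe set gave 0.02 ± 0.07.

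Tfam read 9.88, 9.79 and 9.86 in control and 9.95, 9.98 and 10.02 in injected livers. All injected values were higher, by 0.14 ± 0.05 or 1.10-fold (95% interval 0.03 to 0.25; limma adjusted p = 0.0891), and the gene was not called. It passed with only genes above the median level tested (adjusted p = 0.0326), with a trended robust prior (0.0467) and with array weights (0.0425). Among 19 measured genes of mitochondrial DNA expression and maintenance 1 rose and 1 fell, with a median of 0.05 and changes between -0.35 and 0.20. The gene for the accessory subunit of the mitochondrial DNA polymerase, Polg2, fell by 0.35 ± 0.06 on the log2 scale. Mgme1, for a mitochondrial genome exonuclease, rose by 0.20 ± 0.06, and removal of any array ended this call (limma adjusted p up to 0.140). Other Tfam partners in mitochondrial transcription were not called: Tfb1m gave 0.16 ± 0.05, Tfb2m 0.00 ± 0.04 and the RNA polymerase gene Polrmt -0.04 ± 0.05.

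Coregulators that share these receptors gave 1 rise and 1 fall among 15 measured, with a median of -0.03. Lpin1, for a phosphatidate phosphatase that also coactivates PPAR-alpha with PGC-1-alpha, rose by 0.28 ± 0.06. Tbl1x, for a subunit of corepressor complexes, fell by 0.21 ± 0.06 on the log2 scale. Removal of any control array or of injected replicate 2 ended both calls (limma adjusted p up to 0.0715 and 0.136), and removal of injected replicate 3 that of Tbl1x. The deacetylase gene Sirt1 (-0.03 ± 0.07) and the corepressor gene Nrip1 (0.09 ± 0.06) were not called.

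Among 14 measured genes of factors listed as drivers of Ppargc1a transcription, 0 rose and 4 fell, with a median of -0.11. Crtc1 and Tfe3, also listed, were not measured. The arrays measured RNA levels. The activity of these factors, and whether the form measured raises or lowers Ppargc1a, was not tested. At an unadjusted p under 0.05 Foxo1 (0.21 ± 0.08) and Mitf (0.35 ± 0.11), a relative of Tfeb, were the higher genes. Neither was called (limma adjusted p = 0.101 and 0.0651). The groups overlapped for Mitf, at 6.40, 6.47 and 6.64 in control and 7.02, 6.89 and 6.63 in injected livers. Cebpb, for a liver-enriched basic leucine zipper factor, read 11.23, 11.25 and 11.25 in control and 10.89, 10.87 and 10.96 in injected livers. It fell by 0.34 ± 0.05 on the log2 scale, a call kept on removal of each array in turn. Crem, for a cyclic AMP response factor, fell by 0.32 ± 0.07; removal of control replicate 3 ended the call (limma adjusted p = 0.0564), as did averaging its probe sets (adjusted p = 0.321). Foxo3 (-0.15 ± 0.04) and Irf4 (-0.22 ± 0.06), named after their values were seen, completed the 4. Removal of any array ended the Foxo3 call (limma adjusted p up to 0.154), and removal of any array but injected replicate 1 that of Irf4 (up to 0.166). The count of 4 became 2 on removal of control replicate 1 or 2 or injected replicate 2 or 3, and 1 on removal of control replicate 3. On removal of injected replicate 3, 1 gene rose.

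Of 20 measured PPAR-alpha targets 14 rose and 1 fell, with a median of 0.37, in livers labelled as lacking Ppara. With averaged probe sets, or without _x_at and _s_at sets, 13 rose and the Angptl4 call was lost. Over the alternative fits the log2 change of Angptl4 ran from -0.10 to 0.32. The pantetheinase gene Vnn1 read 5.77, 5.58 and 5.99 in control and 10.60, 10.80 and 10.98 in injected livers, a 32.2-fold rise. The fatty acid hydroxylase gene Cyp4a14 rose 19.4-fold. The peroxisomal enzyme gene Ehhadh fell by 0.20 ± 0.05 on the log2 scale, which removal of any array but injected replicate 1 left uncalled (limma adjusted p up to 0.126).

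Of 12 measured PPAR-gamma targets 4 rose and 3 fell, with a median of -0.01. The fatty acid transporter gene Cd36, which is also a PPAR-alpha target, rose from 9.07, 9.10 and 9.17 to 10.82, 11.10 and 11.45, or 4.02-fold. The lipoprotein lipase gene Lpl rose by 0.72 ± 0.09. Plin4 (1.88 ± 0.24), for a lipid droplet coat protein, and Cidec (0.43 ± 0.11), for a lipid droplet fusion protein, were the other rises and were named after their values were seen. Removal of any control array or of injected replicate 2 ended the Cidec call (limma adjusted p up to 0.105). The gluconeogenic gene Pck1 (-0.68 ± 0.05) and Gpd1 (-0.55 ± 0.10), for glycerol-3-phosphate dehydrogenase, fell. So did Mogat1 (-0.21 ± 0.05), for a monoacylglycerol acyltransferase, named after its value was seen, a call that removal of any array ended (limma adjusted p up to 0.108).

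Of 18 measured targets of PGC-1 and ERR-alpha 8 rose and 1 fell, with a median of 0.22. Cox7a1, for a cytochrome oxidase subunit typical of muscle and brown fat, read 5.37, 5.53 and 5.34 in control and 8.53, 8.92 and 9.29 in injected livers, an 11.3-fold rise. The tricarboxylic acid cycle gene Idh3a rose by 0.68 ± 0.04. Striated muscle markers read between 4.35 and 6.75 on every array, and of 10 measured 0 rose and 1 fell; the brown fat gene Ucp1 gave 4.98 ± 0.07 and 4.83 ± 0.07 (SD, n = 3). Cox8b, a further muscle and brown fat subunit named after its values were seen, rose 9.83-fold, to 8.44, 9.16 and 9.71. The control values of Cox7a1, Cox8b, Vnn1 and Cyp4a14 lay within the range of the muscle markers and are not shown to be above background, so the folds of these 4 genes may understate the change. The control values of Plin4 and Mgme1 also lay there, as did every value of Ppard, Thrb, Irf4, Mogat1, Cidec, Esrrb and Esrrg. These values too are not shown to be above background, which limits the calls of Thrb, Irf4, Mogat1 and Cidec. G6pc, for the last enzyme of glucose release and a gene that PGC-1-alpha is known to activate in fasting, read 13.45, 13.42 and 13.42 in control and 12.76, 12.46 and 11.59 in injected livers. It fell by 1.16 ± 0.26 on the log2 scale. The injected mice had the reverse of their Ppargc1a order, as in 24.2% of all genes, and a link between G6pc and Ppargc1a was not tested. Removal of any control array or of injected replicate 2 ended the call (limma adjusted p up to 0.0715), as did an intensity trend with robust prior (adjusted p = 0.0888).

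**Figure D4:**
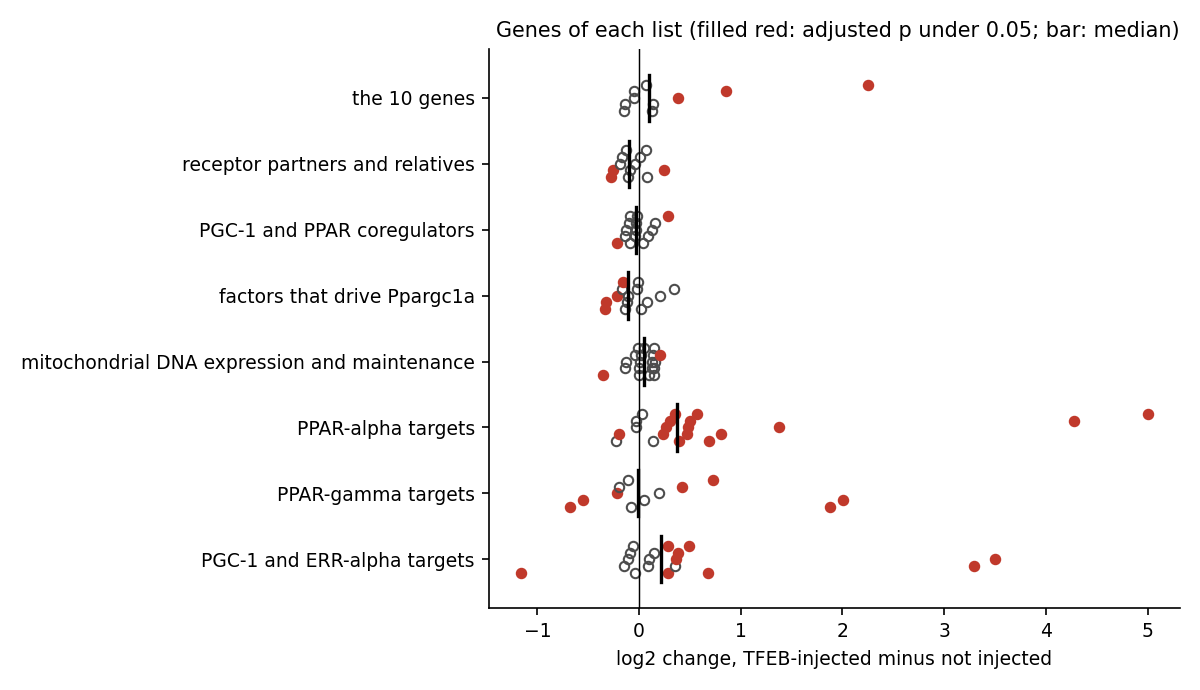
Log2 change (x axis, TFEB-injected minus not injected) of every measured gene in 8 lists (y axis); filled red circles have an adjusted p under 0.05, open circles do not, and black bars are medians. Receptors, coregulators, upstream factors and mitochondrial DNA genes lie close to 0. The PPAR-alpha list (median 0.37) extends mostly to the right, the PPAR-gamma list from -0.68 to 2.01 and the PGC-1 and ERR-alpha list from -1.16, for G6pc, to 3.50.

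The injected mice had the same order for Ppargc1a, Pparg and Esrra, with replicate 1 lowest and replicate 3 highest. Of the 1238 genes called higher 617, or 49.8%, had this order, as had 27.5% of all genes tested. Among the called PPAR-alpha targets it was 6 of 14, among the called PGC-1 and ERR-alpha targets 5 of 8, and among the called PPAR-gamma targets 2 of 4. The reverse order was found in 14.5% of genes called higher and 24.2% of all genes, and in 4, 2 and 2 of the called genes of those lists. Genes that most resembled Ppargc1a were ranked by Pearson correlation over the 6 arrays among 280 genes with a range of at least 1. They were Gas6 (r = 0.999), for a ligand of TAM receptors, Gpnmb (0.999), for a lysosomal glycoprotein, and Fgl1 (0.998), for a secreted liver protein, followed by Slco1a4 (0.998), for an organic anion transporter, and Lpcat3 (0.998), for a phospholipid acyltransferase. These correlations describe arrays that share the group difference and carry no test.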

How the data were processed

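Per the submitters' processing notes, the authors made the deposited log2 values with RMA in the affy package (versions not given in the sources used here), which subtracts background, sets all arrays to one distribution and summarises each probe set. Quantile normalization hides overall shifts in RNA content and RMA compresses changes of dim genes. With so few arrays precision is limited; the labels call them biological replicates.

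Of 22690 probe sets 64 were controls; 20393 had 1 gene symbol, 691 several and 1606 none. Lead probe sets of 12393 genes were compared with limma 3.58.1 (R 4.3.3, lmFit and eBayes, Benjamini-Hochberg adjustment, threshold 0.05). The procedure was tested on simulated data with the same spread in both groups, which does not cover genes of unequal spread such as Ppargc1a. Every probe set was also fitted separately. Genes were named by rule: all members, Tfeb, of each list of related genes (not the cell type markers) the 2 lowest-p called genes per direction (with none called, its lowest-p gene), and the 5 genes most like Ppargc1a; others named are given for context or marked in the text. Members and lists were chosen with earlier results of these data known. Promoters came from RefSeq (GRCm38.p6). Plots used matplotlib 3.10.9 (Python 3.11.15).

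The alternatives changed the gene summary (averaged probe sets, no _x_at or _s_at sets, all probe sets), the scaling (median centring, cyclic loess), the filter (only genes above the median level) and the model (trended robust prior, array weights, replicate block). Each array was also removed in turn, and thresholds of 0.01 and 0.1 were applied. The labels do not say that the replicate numbers pair mice, so the numbers were not treated as pairs.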

Additional observations from a re-analysis of the deposited data

How the results depend on the processing

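Ppargc1a and Esrra rose in all 15 alternative fits, with log2 changes of 1.89 to 2.64 and 0.32 to 0.43; Pparg was called in 10 of 15 (0.64 to 1.11). The number of the 10 genes called higher was 2 to 3 with an array removed, and 4 (with Tfam) under array weights, with only genes above the median level or at a threshold of 0.1. The count of 0 called lower became 2 with arrays centred on their median, with only genes above the median level, with a trended robust prior or at a threshold of 0.1, and 1 with cyclic loess or array weights; it stayed 0 on removal of each array. At an unadjusted p under 0.05 the lower genes were Rxra and Gabpa. With arrays removed Ppard ranged from -0.1150 to 0.0044, the highest without not-injected replicate 1. Nrf1 ranged from -0.1259 to 0.0050, the highest without TFEB-injected replicate 1. Tfeb ranged from -0.0113 (without TFEB-injected replicate 3) to 0.1040 and was -0.0457 with array weights.

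Same-numbered arrays of the groups had deviations correlated at 0.01, -0.13 and -0.11 (replicates 1, 2 and 3), and differently numbered arrays at -0.04 to 0.16. The labels name no pairing, and with so few arrays these values cannot show whether the numbers pair the mice. The replicate block gave 923 genes higher and 610 lower, and 3 higher and 0 lower of the 10 genes. Over the 7 lists of related genes the count called lower went from 13 to 6. By list, the block gave 0 receptor partners higher and 1 lower, 0 coregulators lower, 1 factor driving Ppargc1a lower, 0 mitochondrial DNA genes higher and 0 PPAR-alpha targets lower.

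Over all genes, array weights gave 1923 higher and 1826 lower, a threshold of 0.01 gave 645 and 408, and a threshold of 0.1 gave 1472 lower. With an array removed the counts were 719 to 1344 higher and 502 to 1068 lower, and in the 7 lists 21 to 29 higher and 5 to 11 lower. By list those ranges were 0 to 1 higher and 0 to 3 lower for receptor partners, 0 to 1 and 0 to 1 for coregulators, and 0 to 1 and 1 to 3 for factors driving Ppargc1a. They were 0 to 0 and 1 to 2 for mitochondrial DNA genes, 12 to 14 and 0 to 1 for PPAR-alpha targets, 3 to 4 and 2 to 3 for PPAR-gamma targets, and 6 to 9 and 0 to 1 for PGC-1 and ERR-alpha targets.

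Array weights gave 4 receptor partners lower, 2 coregulators higher, 1 factor driving Ppargc1a higher, 5 mitochondrial DNA genes higher and 2 lower, and 2 PGC-1 and ERR-alpha targets lower. With only genes above the median level 2 coregulators, 3 mitochondrial DNA genes and 2 PPAR-gamma targets were higher, where fewer genes were tested. Averaged probe sets gave 0 coregulators lower, 1 factor driving Ppargc1a higher and 1 lower, and 0 mitochondrial DNA genes higher. With every probe set tested 2 such factors were lower and 0 mitochondrial DNA genes higher. Median centring gave 0 mitochondrial DNA genes higher and 2 PPAR-alpha targets lower. The trended prior gave 1 factor and 2 mitochondrial DNA genes higher and 0 PGC-1 and ERR-alpha targets lower. At a threshold of 0.01, 4 genes of the 7 lists were lower, with 0 receptor partners and 0 coregulators in either direction, 1 factor driving Ppargc1a lower, 0 mitochondrial DNA genes higher, and 0 PPAR-alpha and 0 PGC-1 and ERR-alpha targets lower. At 0.1, 1 factor and 3 mitochondrial DNA genes were higher and 2 PPAR-alpha targets lower. Apart from the tighter or looser threshold and the smaller tested set, the cause of these differences was not tested. With 3 mice per group and no counts behind the values, small changes of the kind seen for Gabpa, Rxra and Tfam lie at the limit of what the arrays resolve.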
